A study of Mus musculus with 3 samples.

Results

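Immune cells of the renal medulla were taken as the cells to which the authors' deposited annotation gives the cell type Immune. They numbered 3266 of 181257 cells and all belonged to 1 of the 25 clusters, so no division into macrophages and T cells was possible from these labels. Of these cells, 135 came from healthy controls, 2111 from day 28 and 1020 from day 84 after reversible unilateral ureteral obstruction (R-UUO). The study asked how the cell populations of the medulla differ after an obstruction has been relieved, and the question here is how common the immune cells were in each sample, which other populations they rose with, and what their RNA content was.

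All mice were males with BALB/c given as their genotype. For R-UUO a small clamp closed the left ureter and was removed after several days, in mice of 12 to 13 weeks of age per the study's methods. Healthy controls had no obstruction. In the long-term experiments the opposite kidney was removed after the clamp, and the sources used here do not say whether this held for the mice sequenced at each time, nor do they give the controls' age. Medullas were frozen in pools of 3 to 4 and each pool is 1 sample here: 4 control pools, 4 pools at day 28 and 2 at day 84. Blood vessels were flushed with saline at harvest. The dissections held varying amounts of outer medulla, and each condition was a droplet run of its own, so that condition and run cannot be told apart.

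The medulla's interstitium, the space between tubules and vessels, holds resident macrophages and a small number of lymphocytes. Macrophages clear dead cells and debris, present antigen and exchange signals with fibroblasts and tubule cells. T cells recognise antigen and can sustain or limit inflammation. After urinary obstruction, macrophages are known to gather in the injured kidney beside myofibroblasts, the matrix-producing cells of a scar. Leukocytes of all kinds carry CD45, the phosphatase encoded by Ptprc. The tables hold no value for any gene, so the label Immune was not checked against Ptprc here.

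The pools held between 13013 and 24338 cells. Unique molecular identifiers (UMIs) here each stand for 1 captured copy of a probe hybridized to RNA. In cells other than immune cells, their median number lay between 1139 and 1581 in control pools. It lay between 1609 and 3341 at day 28, and was 923 and 754 at day 84. Depth therefore differed between conditions, and the UMIs and detected genes of immune cells are compared below with those of other cells in the same pool.

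Immune cells made up a larger share of every pool after R-UUO than of any control pool, and remained a small part of all cells. The study's authors described the rise in inflammatory cells at both times as minor. The 4 control pools held 27, 70, 22 and 16 immune cells, which were 0.138%, 0.288%, 0.153% and 0.0787% of their cells. At day 28 the pools held 313, 508, 391 and 899, or 2.41%, 3.62%, 2.37% and 5.77%. At day 84 the 2 pools held 585 and 435, or 2.96% and 1.83%. The groups did not overlap: the highest upper limit of an exact 95% binomial interval in a control pool was 0.363%, and the lowest lower limit after R-UUO was 1.67% (these intervals cover counting error only). In other terms, there was 1 immune cell for every 348 to 1270 cells in control pools, for every 17.3 to 42.3 cells at day 28, and for every 33.8 and 54.5 cells at day 84. Within a condition the pools differed by more than counting error. Pool 4 at day 28 stood highest of all 10, and its interval of 5.41% to 6.15% did not reach that of any other pool.

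**Figure D1:**
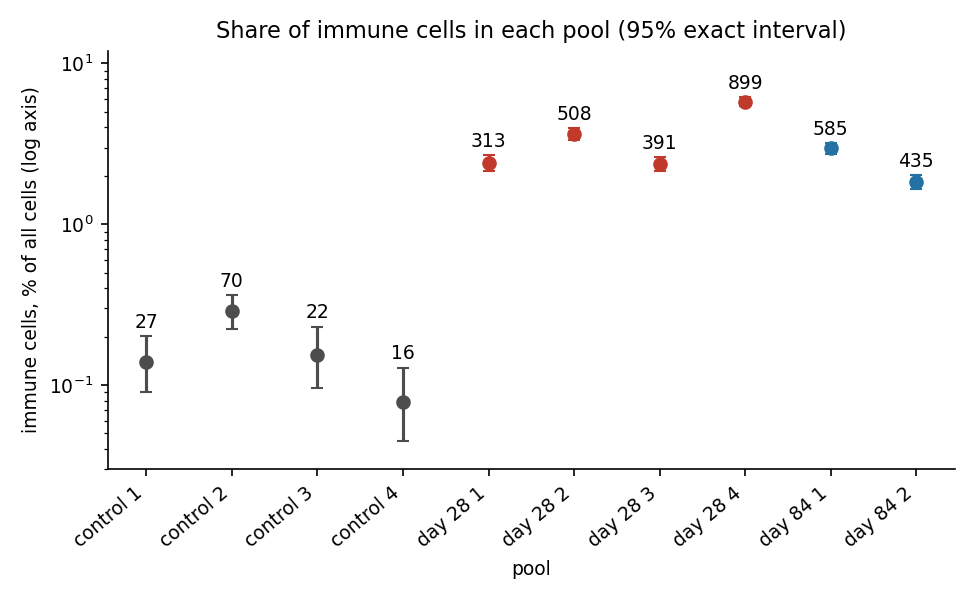
The share of immune cells among all cells is plotted for each pool on a log axis, with its exact 95% binomial interval and the number of immune cells above it. Control pools sit between 0.0787% and 0.288%, and pools after R-UUO between 1.83% and 5.77%.

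Since the amount of outer medulla in a dissection moves any share of all cells, immune cells were also counted against the other cells that are not epithelial, the endothelial cells (ECs) and the fibroblast lineage. Immune cells made up 0.544%, 1.31%, 0.708% and 0.321% of these cells in the control pools. The day 28 pools had 12.6%, 14.5%, 8.61% and 15.5%, and the day 84 pools had 11.9% and 9.22%. The control mean was 0.721% ± 0.424 (SD, n = 4). The day 28 mean was 12.8% ± 3.05 (SD, n = 4), the day 84 mean was 10.6% ± 1.90 (SD, n = 2), and no control pool overlapped with the others. The odds of a non-epithelial cell being an immune cell rose 22.0-fold at day 28, a log2 difference of 4.46 (SE 0.357) with an adjusted p of 1.01e-10 in limma. At day 84 they were 18.0-fold those of controls, a log2 difference of 4.17 (SE 0.437, adjusted p = 1.3e-08 in limma). These SEs come from a spread pooled over 3 parts of 1 total, which are not independent. With the immune cells' own spread the SEs were 0.442 and 0.541 and the adjusted p 6.03e-05 and 3.47e-04 in limma. In the exact permutation test over pools, day 28 against control gave p = 0.0286 (n = 4 and 4) and day 84 against control gave p = 0.0667 (n = 4 and 2), each the smallest these numbers of pools allow. Of the 3 non-epithelial cell types, 66.7% passed the test at day 28 and 33.3% at day 84, as against 0.00% between the times. For the share of all cells, which rose at both times as well, 57.1% of the 7 cell types passed at day 28 and 28.6% at day 84.

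From day 28 to day 84 no change in the share was resolved. The log2 odds differed by -0.52 for the share of all cells, with a 95% interval of -1.76 to 0.72 (adjusted p = 0.508 in limma, where 14.3% of cell types passed), and by -0.29 for the share of non-epithelial cells, with an interval of -1.20 to 0.62 (adjusted p = 0.900 in limma). These intervals span a marked fall as well as a rise, and with 2 pools at day 84 they do not show that the times were alike.

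The abundance of immune cells was next set against populations of the same tissue, to see whether it rose by more or by less than theirs. ECs line the vasa recta and capillaries of the medulla. A control pool held 104, 49.9, 89.3 and 168 ECs for each immune cell in turn, a day 28 pool 4.22, 3.01, 5.14 and 1.92, and the day 84 pools 3.36 and 5.08. Fibroblast lineage cells, the matrix cells of the interstitium, numbered 25.4 to 142 for each immune cell in control pools, 2.72 to 5.48 at day 28, and 4.04 and 4.77 at day 84. Both ratios changed without overlap between control pools and pools after R-UUO. On the log2 scale immune cells rose against ECs by 4.78 at day 28 and 4.48 at day 84, and against the fibroblast lineage by 4.11 and 3.79 (SE 0.465 at day 28 and 0.570 at day 84 for each, largest adjusted p = 2.71e-07 in limma). The 5 ratios of this fit share the same immune counts, so their pooled spread does not rest on independent values, and with each ratio's own spread the largest adjusted p of these 4 differences was 0.00152 in limma.

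The cluster MyoFib holds the myofibroblasts, the part of the fibroblast lineage that grew after R-UUO in these labels. There were 20.4, 9.13, 11.5 and 27.1 MyoFib cells for each immune cell in the control pools. At day 28 there were 1.92, 2.30, 3.83 and 3.14, and at day 84 there were 3.28 and 3.07. Every pool after R-UUO was thus below every control pool. Immune cells rose 5.65-fold against MyoFib cells at day 28 (log2 2.50, SE 0.465, adjusted p = 8.76e-06 in limma; exact permutation p = 0.0286) and 4.81-fold at day 84 (log2 2.27, SE 0.570, adjusted p = 5.57e-04 in limma). With its own spread the adjusted p was 6.20e-04 and 0.00355 in limma. The immune population therefore grew by more than the myofibroblasts did.

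Against the injured epithelial clusters the direction was the other one. InjuredLOH cells are loop of Henle (LOH) cells that the authors assigned to an injured state, and InjuredCD cells are their counterparts among collecting duct (CD) cells. InjuredLOH cells numbered 0.926, 0.771, 0.409 and 1.81 for each immune cell in control pools, 2.49, 2.37, 3.81 and 2.50 at day 28, and 3.59 and 1.38 at day 84. All day 28 pools lay above all controls, while the second day 84 pool lay within their range. The ratio of immune to InjuredLOH cells fell by 1.67 on the log2 scale at day 28 (SE 0.465, adjusted p = 0.00122 in limma; exact permutation p = 0.0286), so that InjuredLOH cells grew 3.19-fold more. With its own spread the adjusted p was 0.0148 at day 28 and 0.0581 at day 84 in limma. At day 84 it differed by -1.38 (SE 0.570, adjusted p = 0.0210 in limma; exact permutation p = 0.200). The day 84 difference was no longer past the threshold without control pool 3 (-1.04, adjusted p = 0.0980 in limma) or without day 84 pool 1 (-0.69, adjusted p = 0.374 in limma).

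InjuredCD cells numbered 0.444, 0.243, 0.364 and 1.19 for each immune cell in control pools, and these values rest on 8 to 19 InjuredCD cells a pool. At day 28 they numbered 1.08, 0.778, 1.02 and 0.899, inside the control range, and at day 84 they numbered 2.01 and 1.99, above it. The log2 ratio of immune to InjuredCD cells was lower by 2.08 at day 84 (SE 0.570, adjusted p = 0.00108 in limma, and 0.00889 with its own spread), and the 2 pools fell below all 4 controls. At day 28 the difference of -0.98 (SE 0.465, adjusted p = 0.0419 in limma; exact permutation p = 0.143) does not stand, because it lost the threshold when any pool other than control pool 4 was left out, with values from -1.07 to -0.67. Without control pool 4 it was -1.42 (adjusted p = 9.30e-04 in limma). All 5 ratios passed at both times (100%). None of the 5 ratios passed between day 28 and day 84 (0.00%).

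**Figure D2:**
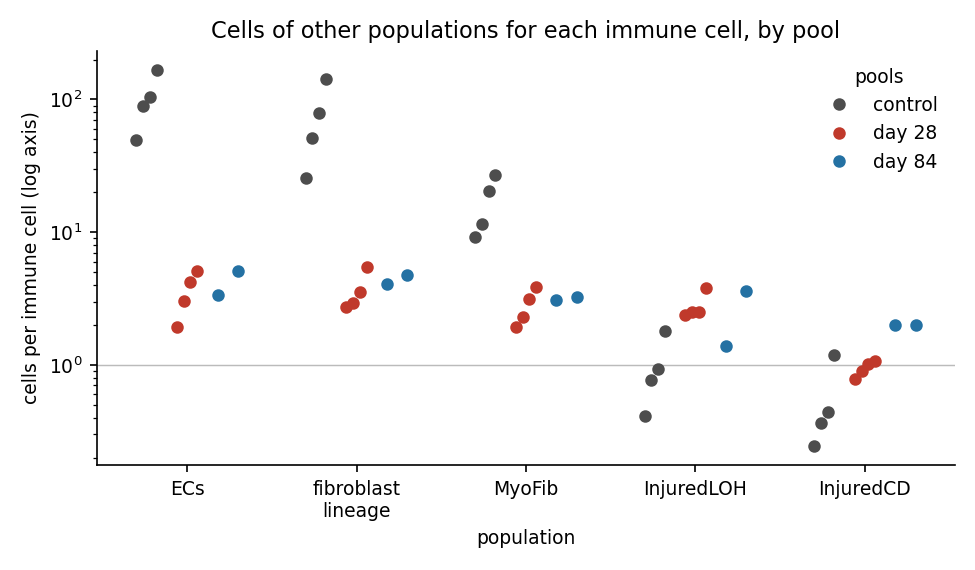
For 5 populations, each point is a pool's number of cells of that population for each immune cell, on a log axis, with control, day 28 and day 84 pools side by side and a line at 1. ECs, fibroblast lineage and MyoFib cells fall after R-UUO relative to immune cells, whereas InjuredLOH cells are higher at day 28 and InjuredCD cells at day 84.

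Among the 6 pools after R-UUO, the immune share was higher where MyoFib cells took more of the fibroblast lineage and InjuredCD cells more of the CD cells, and 2 of the 4 relations computed passed the test. The relations used the log2 odds of the immune share of all cells and of the share of MyoFib in the fibroblast lineage, InjuredCD in CD cells, InjuredLOH in LOH cells, and proximal tubule (PT) cells in all cells. Control pools were left out because they form a cluster apart. The immune share ran from 1.83% in day 84 pool 2 to 5.77% in day 28 pool 4, and the same 2 pools had the lowest and the highest share of MyoFib cells in their lineage, 64.4% and 89.5%. InjuredCD cells made up 28.7% of CD cells in day 28 pool 4, 19.1% in day 28 pool 2, 18.5% in day 84 pool 1 and 15.2% in day 28 pool 1, the order of the immune share. They made up 12.3% in day 84 pool 2 and 11.8% in day 28 pool 3, which stood in the reverse order for immune cells.

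The immune share and the MyoFib share gave Pearson's r = 0.970 (exact permutation p = 0.00417, adjusted p = 0.0111 over the 4 relations) and Spearman's rho = 0.943 (exact permutation p = 0.0167, adjusted p = 0.0333). Without the 2 pools farthest from the median MyoFib share r was 0.829. For InjuredCD, r was 0.958 (exact permutation p = 0.00556, adjusted p = 0.0111) and rho was 0.943 (exact permutation p = 0.0167, adjusted p = 0.0333), and r was 0.975 without the 2 farthest pools. With each measure centred on its time, r was 0.990 for MyoFib and 0.974 for InjuredCD (exact permutation p = 0.0208 and adjusted p = 0.0417 each, over 48 pairings), while rho was 0.943 for both and did not pass (exact permutation p = 0.0417, adjusted p = 0.0833). The 2 pools of day 84 can add only a direction to these values.

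InjuredLOH cells made up 15.5%, 23.5%, 24.3% and 35.4% of LOH cells in the day 28 pools and 28.4% and 6.39% in the day 84 pools. Their relation to the immune share did not pass (r = 0.805, exact permutation p = 0.0653, adjusted p = 0.0870, rho = 0.714, exact permutation p = 0.136, adjusted p = 0.181) and rested on the outermost pools, since r was 0.431 without the 2 farthest. PT cells, which lie in the outer medulla and cortex, made up 22.8%, 21.2%, 13.0% and 2.95% at day 28 and 3.60% and 7.64% at day 84. Their relation did not pass either (r = -0.420, exact permutation p = 0.406, adjusted p = 0.406, rho = -0.314, exact permutation p = 0.564, adjusted p = 0.564), and without the 2 farthest pools r was 0.762, of the opposite sign.

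The relations to MyoFib and InjuredCD depended on the denominator and on the filter on cells. With at least 500 genes in a cell and no more than 5% mitochondrial UMIs, neither passed (r = 0.800, rho = 0.714 for InjuredCD and r = 0.801, rho = 0.600 for MyoFib, adjusted p = 0.125 for each r, exact permutation test). With the 2 clusters taken as a share of all cells, r fell to 0.456 for InjuredCD (adjusted p = 0.406, exact permutation test) and 0.853 for MyoFib (adjusted p = 0.125, exact permutation test). With immune cells as a share of non-epithelial cells, r was 0.902 for InjuredCD and 0.798 for MyoFib, both short of the threshold (adjusted p = 0.0556 and 0.117, exact permutation test). Without day 28 pool 4, r was 0.872 for InjuredCD and 0.908 for MyoFib (adjusted p = 0.133 and 0.100, exact permutation test, n = 5). With 5 pools the adjusted p was also no lower than 0.05 for InjuredCD without day 28 pool 1 (r = 0.961), day 28 pool 2 (r = 0.959) or day 84 pool 1 (r = 0.965), and for MyoFib without day 28 pool 1 (r = 0.969) or day 84 pool 2 (r = 0.957). The MyoFib and InjuredCD shares also moved together over the 6 pools (r = 0.968, rho = 0.886, as a description), so their relations to immune cells cannot be told apart. The immune share and the median UMI count of the pool's other cells gave r = 0.217 and rho = 0.257, as a description. These values do not show what part depth had in the relations above, and that part was not tested.

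**Figure D3:**
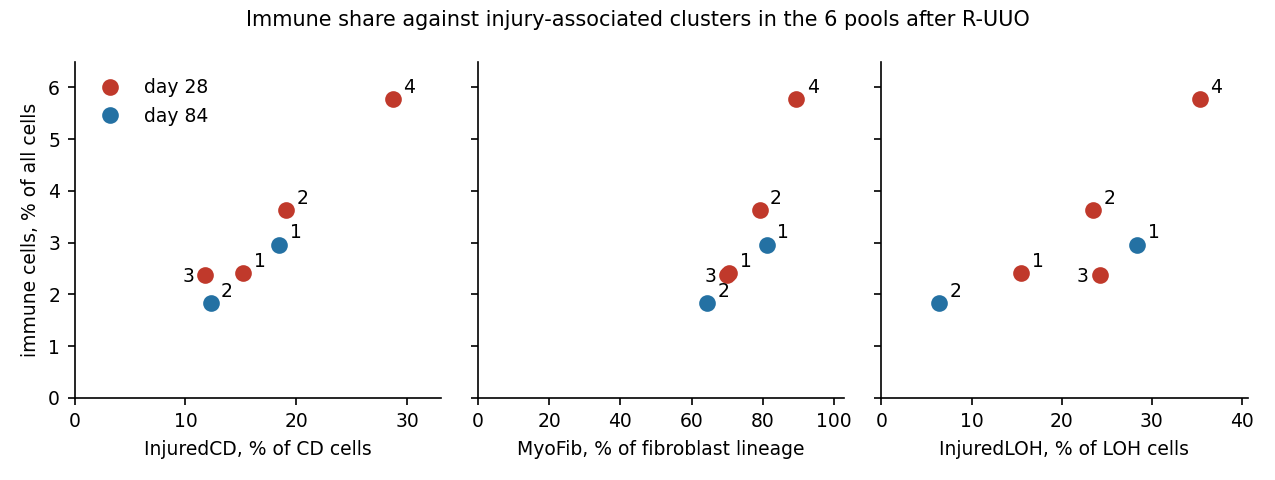
Each panel plots the share of immune cells among all cells against 1 cluster's share of its lineage in the 6 pools after R-UUO, labelled with the pool number. The immune share climbs with InjuredCD and MyoFib, from 1.83% to 5.77%, while the points for InjuredLOH scatter more widely.

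Over all 24 other clusters taken as shares of all cells, MyoFib (r = 0.853), InjuredLOH (r = 0.820) and the pericyte cluster Peri (r = 0.601) varied most like the immune cells, and the papillary vasa recta cluster EndoVR/papilla (r = -0.894), deepIM-CD (r = -0.878) and IM-CD (r = -0.856), both of the inner medullary collecting duct, varied most unlike them. These values describe 6 pools, and shares of 1 total are tied to each other. In the 4 control pools, too few for a correlation, pool 2 had the most immune cells as well as the most PT cells (3.02%), MyoFib cells in their lineage (35.9%) and InjuredLOH cells in theirs (0.495%). Control pool 4 had the fewest immune cells, PT cells (0.113%) and MyoFib cells in their lineage (19.1%), but the highest share of InjuredCD cells among CD cells (0.269%) and the second highest share of InjuredLOH cells among LOH cells (0.374%).

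Immune cells had fewer UMIs than most other cells of the medulla, in health and after R-UUO. Their median UMI count in the control pools was 903, 1018, 846 and 759, against 1139, 1581, 1172 and 1207 in the other cells. At day 28 it was 1860, 1208, 1037 and 1072, against 3341, 2263, 1880 and 1609. At day 84 it was 659 and 637, against 923 and 754. The immune median was below that of the other cells in all 10 pools, at 62.9% to 79.2% of it in controls, 53.4% to 66.6% at day 28, and 71.4% and 84.5% at day 84. Among the 25 clusters of a pool ordered by median UMI count, the immune cluster ranked between 2nd and 7th from the lowest. Between 69.4% and 88.6% of immune cells lay below their pool's median, and at most 1.92% were above the 90th percentile of its cells.

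The position of immune cells within the pool was not shown to change at either time. Their log2 difference in median UMIs from other cells changed by -0.27 from control to day 28 (SE 0.112, 95% interval -0.519 to -0.023, adjusted p = 0.0733 in limma; exact permutation p = 0.0857) and by 0.16 from control to day 84 (SE 0.137, 95% interval -0.141 to 0.467, adjusted p = 0.384 in limma). From day 28 to day 84 it changed by 0.43 (95% interval 0.130 to 0.738, adjusted p = 0.0882 in limma). Of the 25 clusters, 44.0% passed at day 28, 20.0% at day 84 and 0.00% between the times. The day 28 value depends on the cells it is set against: relative to ECs it was 0.17 (adjusted p = 0.228 in limma). Without day 28 pool 4 it was -0.34 and passed (adjusted p = 0.0301 in limma).

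Immune cells also varied among themselves, and most at day 28. The 90th percentile of their UMI counts was 2.08, 2.75, 2.17 and 2.00 times the 10th in the control pools, 4.61, 3.77, 4.27 and 3.70 times at day 28, and 2.36 and 2.10 times at day 84. All day 28 pools lay above all others, while in the other cells of the pools this range was 5.40 to 9.75 in controls, 6.69 to 7.86 at day 28, and 6.05 and 5.04 at day 84. The 10th percentile of immune cells was 550 to 604 UMIs in controls, 546 to 876 at day 28, and 503 and 481 at day 84. The authors' lower limit on detected genes can bound this end. The 90th percentile was 1194 to 1626 in controls, 2125 to 4040 at day 28, and 1189 and 1009 at day 84. All day 28 pools lay above all others at this upper end, and day 28 pool 1 also did at the lower end. This comparison was chosen after its values were seen and carries no test, and the day 28 pools were also the deeper ones.

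**Figure D4:**
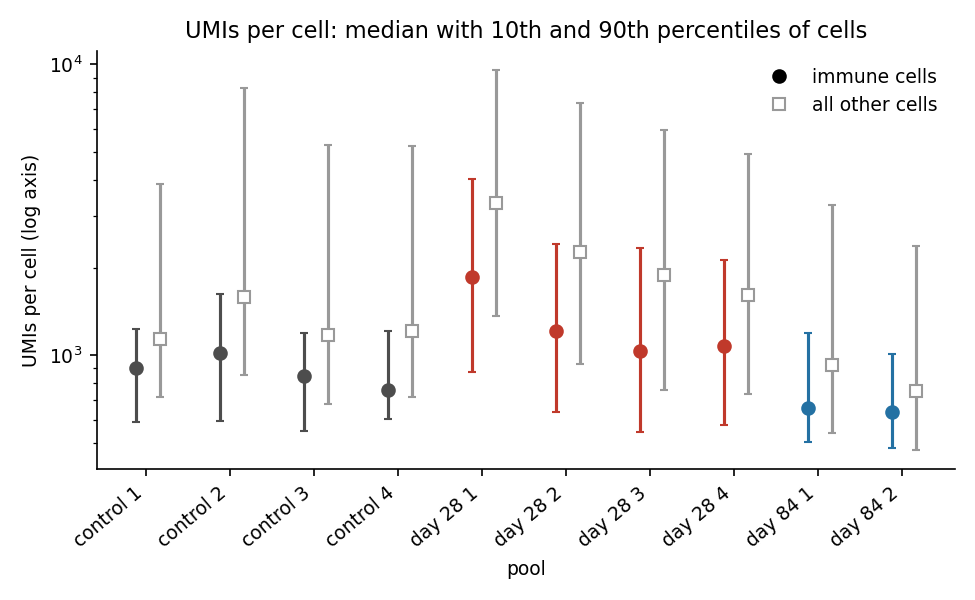
Median UMIs per cell are plotted on a log axis for immune cells (filled circles) and all other cells (open squares) of each pool, with bars from the 10th to the 90th percentile of cells. Immune medians lie below those of other cells in all 10 pools, and the immune bars are longest at day 28, where the 90th percentile is 3.70 to 4.61 times the 10th.

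The number of genes detected in a cell followed the UMI count. The median immune cell had 696, 744, 659 and 595 detected genes in the control pools, 1279, 921, 792 and 823 at day 28, and 513 and 497 at day 84. Other cells had medians of 926 to 1164 in controls, 1169 to 1996 at day 28, and 752 and 604 at day 84. Relative to the other cells of the pool, the log2 difference in medians changed by -0.06 at day 28 (95% interval -0.253 to 0.123, adjusted p = 0.504 in limma, where 36.0% of clusters passed) and by 0.16 at day 84 (95% interval -0.074 to 0.388, adjusted p = 0.288 in limma, where 24.0% passed). Between the times it changed by 0.22 (95% interval -0.009 to 0.452, adjusted p = 0.181 in limma, where 0.00% passed).

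Immune cells stood close to the lower limit that the authors set on detected genes, most of all at day 84. Cells with fewer than 500 genes made up 14.8%, 11.4%, 18.2% and 12.5% of immune cells in control pools, 3.51%, 6.10%, 15.9% and 11.8% at day 28, and 45.3% and 51.3% at day 84. Among other cells they made up at most 4.97% in control and day 28 pools, and 15.1% and 29.4% at day 84. A limit of 500 genes therefore removed a larger share of immune cells than of other cells in every pool. With this limit and at most 5% mitochondrial UMIs, the immune share of all cells rose by 4.50 at day 28 and 3.48 at day 84 on the log2 odds scale. Both rises were still past the threshold, and the difference between the times was -1.01 (adjusted p = 0.209 in limma).

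At an equal number of UMIs, the gap in detected genes between immune cells and their neighbours in the pool was narrower at day 28 than in controls or at day 84. Each immune cell was compared with other cells of its pool in the same narrow UMI bin. The mean log2 difference in detected genes was -0.148, -0.136, -0.066 and -0.115 in the control pools, -0.027, -0.022, -0.015 and -0.044 at day 28, and -0.134 and -0.103 at day 84. On average, immune cells thus had fewer genes than their matched neighbours in all 10 pools, and the day 28 pools did not overlap with the others. The day 28 value was 0.09 higher than control (SE 0.0186, adjusted p = 0.00209 in limma, exact permutation p = 0.0286), or 1.06-fold more genes relative to the matched neighbours. This rise was the largest of the 25 clusters, of which 32.0% passed. InjuredLOH (0.08), Peri (0.08), MyoFib (0.05), the proximal tubule cluster PT-S1S2 (0.05) and the descending thin limb cluster DTL (0.05) also passed with a rise. The clusters deepIM-CD (-0.09) and OM-CD_b (-0.10), the latter of the outer medullary collecting duct, passed with a fall.

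Day 84 differed from control by -0.002 (95% interval -0.051 to 0.046, adjusted p = 0.923 in limma, where 0.00% of clusters passed). From day 28 to day 84 the difference fell by 0.09 (SE 0.0228, adjusted p = 0.0135 in limma), the lowest of the 25 clusters, of which 8.00% passed. That fall lost the threshold without day 84 pool 1 (-0.08, adjusted p = 0.195 in limma), and likewise with its own spread (adjusted p = 0.0626), against ECs (adjusted p = 0.0564) and without cells in shared droplets (adjusted p = 0.125, all in limma). Read in absolute terms, immune cells with 1024 to 1448 UMIs had a mean of 861 genes in controls (39 cells), 918 at day 28 (497 cells) and 800 at day 84 (94 cells), while other cells in the same bin had 967, 929 and 923. The higher relative value at day 28 thus combined more genes in immune cells and fewer in the cells beside them than in controls. The same held in the bin of 512 to 724 UMIs, where immune cells had 506, 514 and 477 genes and other cells 543, 515 and 518. It also held from 724 to 1024 UMIs, with 680, 695 and 623 genes in immune cells and 739, 699 and 685 in other cells. In both of these lower bins the other cells' fall from control to day 28 was the larger part. At day 28 the gap changed with the UMI count. From 362 to 512 UMIs immune cells had 420 genes against 412 in other cells, and from 2896 to 4096 UMIs they had 1852 against 2020. Controls had too few immune cells in these bins for a comparison. Depth and run differed between the conditions, and their part in the higher relative value at day 28 was not tested.

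**Figure D5:**
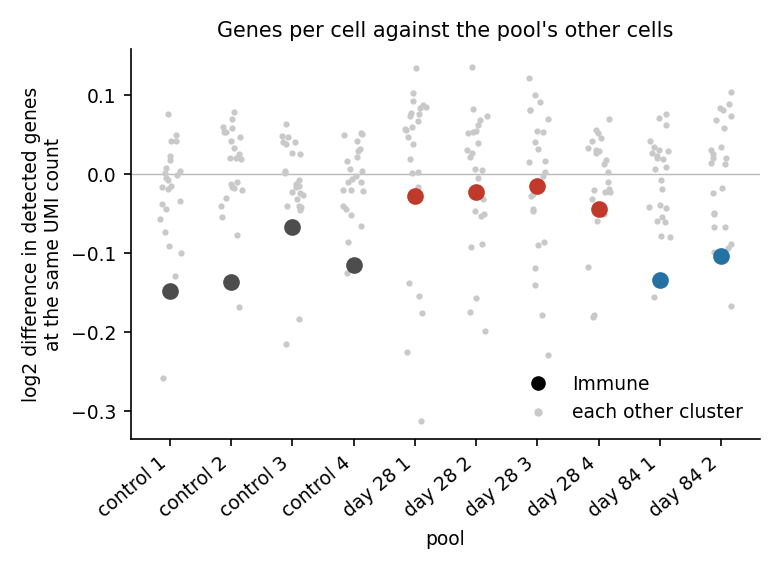
Each point is a cluster's mean log2 difference in detected genes from other cells of the same pool and UMI bin; coloured circles are immune cells and grey dots the other clusters. Immune cells lie between -0.148 and -0.066 in controls, between -0.044 and -0.015 at day 28, and at -0.134 and -0.103 at day 84.

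The mean mitochondrial percent was lower in every pool after R-UUO than in every control pool, in immune and in other cells, and many cells were listed at 0. In immune cells the mean mitochondrial percent was 0.860, 1.83, 1.30 and 0.927 in the control pools, 0.243, 0.047, 0.061 and 0.155 at day 28, and 0.192 and 0 at day 84. In other cells it was 1.44 to 2.43 in controls, 0.141 to 0.530 at day 28, and 0.135 and 0.108 at day 84. Every immune cell of the control pools had mitochondrial UMIs, whereas 28.8%, 75.2%, 70.3% and 65.1% of immune cells had none at day 28, and 43.1% and 100% had none at day 84, where all 435 immune cells of pool 2 were listed at 0. Other cells of the same pools had none in 34.7% to 74.8% of cases at day 28, and in 60.4% and 96.7% at day 84. Mitochondrial transcripts are used by every cell, so a value of 0 in these corrected tables is given only as listed, and run, condition and processing cannot be told apart in this difference.

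Relative to the other cells of the pool, the mean mitochondrial percent of immune cells differed by -0.853 to -0.343 percentage points in controls, by -0.287 to 0.014 at day 28, and by 0.057 and -0.108 at day 84. The change from control was 0.452 percentage points at day 28 (SE 0.122, adjusted p = 0.00744 in limma) and 0.568 at day 84 (SE 0.150, adjusted p = 0.00731 in limma), but 76.0% and 80.0% of the 25 clusters passed, so this was not a change of the immune cells in particular. A negative gap cannot be wider than the other cells' mean, which was 0.108% to 0.530% after R-UUO. Of these pools only day 28 pool 1 (0.530%) could have reached the control range. The direction of the change was thus largely fixed in advance, and it does not show how immune cells changed in proportion to other cells. Without day 84 pool 1 the day 84 value was 0.486 and did not pass (adjusted p = 0.0685 in limma). Against ECs it was 0.041 and 0.020 and did not pass (adjusted p = 0.730 and 0.878 in limma).

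Because pools of a condition were loaded together, cells of different pools can share a droplet. Of the immune cells, 20, 31, 15 and 11 shared their droplet barcode with a cell of another pool in controls, 160, 267, 193 and 456 at day 28, and 166 and 99 at day 84. In the control pools this was 74.1%, 44.3%, 68.2% and 68.8% of immune cells, against 58.2%, 54.0%, 61.0% and 58.5% of other cells. It was 49.4% to 52.6% of immune cells at day 28 against 47.0% to 49.8% of other cells, and 28.4% and 22.8% at day 84 against 27.1% and 22.6%. The droplet partners of immune cells were themselves immune in 2.35% of 1364 cases at day 28, against 3.81% of the partners of other cells, and in 0.755% of 265 against 2.51% at day 84. In these counts immune cells thus did not pair with each other more often than other cells paired with them. Only partners from other pools are counted, and the pools differ in immune share. The rates therefore cannot decide whether immune cells tended to pair. Without all cells in shared droplets, the immune share of all cells still rose, by 4.66 at day 28 and 4.19 at day 84 on the log2 odds scale.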

How the data were processed

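Fixed cells of dissected medullas were measured with the 10x Genomics Flex assay, in which probes with a barcode per pool are hybridized to RNA before droplets are formed. Cell Ranger 7.1 and mm10 are named in the submitters' processing notes. The authors kept cells with 300 genes or more and up to 10% mitochondrial reads, used SoupX against ambient RNA and scDblFinder against doublets, and clustered with Seurat. Only 2 of the immune cells in the tables have under 300 genes. Per cell, the authors deposited UMI counts after correction (whole counts after R-UUO, and expected counts that are fractional in 1 control pool), detected genes as counts, and mitochondrial percent, with pool, cell type and cluster, which were used as given. No gene values were analysed here.

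The pool was the replicate. Whether pools were processed on separate days is not given in the sources used here. The p-values rest on the spread between pools. In limma, part of that spread is drawn from the other cell types, clusters or ratios of a fit. Spread between runs is not measured, since each condition was a run of its own. Shares were turned into log2 odds and ratios into log2 ratios after adding 0.5 cells. UMIs and genes were compared as log2 medians of a cluster minus those of the pool's other cells, with at least 5 cells, and matched genes in UMI bins of 0.25 on the log2 scale. All were fitted with limma 3.58.1 in R 4.3.3 (3 conditions in one fit, two-sided, Benjamini-Hochberg over all cell types, clusters or ratios of a fit, threshold 0.05). Exact two-sided permutation tests and correlations used scipy 1.17.1 in Python 3.11.15. Endo and Fib in the deposited labels are the ECs and the fibroblast lineage. The fits were tested on simulated data. The populations and tests were chosen with earlier results of these data known, and no gene is named with a value. Alternatives were other filters, denominators, reference cells and spreads, and leaving out each pool.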

Additional observations from a re-analysis of the deposited data

Results flagged for a closer look

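In day 28 pool 3 the log2 ratio of immune to InjuredLOH cells was -1.93, while the other 3 pools of that day lay between -1.32 and -1.25. The gap took up 0.886 of the range of the 4 pools and was past Dixon's limit for a single distant value. Dixon's test was applied to 22 groups of 4 pools, of which about 1.1 would be past the limit by chance. Of the day 28 pools it also had the most ECs (5.14), fibroblast lineage cells (5.48) and MyoFib cells (3.83) for each immune cell.

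Detected genes of immune cells at matched UMI count, relative to other cells of the pool, were higher at day 28 than in controls, and the change from day 28 to day 84 was itself tested and was -0.0916 on the log2 scale (adjusted p = 0.0135 in limma). It did not pass in 3 of the alternatives (adjusted p from 0.0564 to 0.125 in limma) or without day 84 pool 1 (adjusted p = 0.195 in limma). In the bin of 512 to 724 UMIs, the mean went from 506 to 514 genes in immune cells and from 543 to 515 in other cells between control and day 28, so the other cells' fall was the larger part there.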

How the results depend on the processing

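The 37 results were recomputed under 608 alternatives in all. Of these, 545 kept the direction and the side of the threshold, 46 lost the threshold, 5 gained it and 12 changed direction. The rise of the immune share, of all cells or of non-epithelial cells, and the rises against ECs, the fibroblast lineage and MyoFib kept both under every alternative run on them, including own spread and shared droplets, which were chosen after seeing the data. The exact permutation test was counted as an alternative at day 28 only, since with 2 pools at day 84 it cannot go below 0.0667. The EC reference, the zero mitochondrial share at matched UMIs and immune cells of non-epithelial cells were also chosen after seeing the data and bear on the other results. No paired analysis was possible because the pools of different conditions came from different mice and the labels give them no shared number.

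For the ratio of immune to InjuredCD cells at day 28, the difference from control was -0.98 and lost the threshold with each ratio's own spread, with only the pools compared and in the exact permutation test, was -0.89 with the stricter filter (500 genes or more, 5% mitochondrial UMIs or fewer) and -0.89 without the 5% of cells with the most UMIs, was -0.86 without shared droplets, and ran from -1.42 to -0.67 when each pool was left out. From day 28 to day 84 the difference in this ratio passed with only the pools compared (-1.09) and with the stricter filter (-1.79). For InjuredLOH at day 84, the difference from control lost the threshold with its own spread and with only the pools compared (-1.38 each), was -1.68 without shared droplets, and ran from -2.06 to -0.69 over the pools left out. Its difference between the times, 0.30, changed sign with the stricter filter (-0.37) and ran from -0.39 to 0.99.

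The relative UMI count at day 28 passed with the stricter filter (-0.34), was 0.17 against ECs, and ran from -0.34 to -0.21, passing without day 28 pool 4. Its difference between the times passed with the stricter filter (0.45). Relative detected genes at day 28 changed sign with the mean of log2 values (0.11) and against ECs (0.26), and so did the difference between the times against ECs (-0.0111). At matched UMIs, the difference of day 84 from control was 0.0024 against ECs, 0.010 without shared droplets, and ran from -0.017 to 0.014. The difference between the times lost the threshold with its own spread (-0.0916), against ECs (-0.0888) and without shared droplets (-0.0939), and ran from -0.107 to -0.0764.

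The mitochondrial difference lost the threshold with the stricter filter (0.20 at day 28 and 0.27 at day 84), against ECs (0.0407 and 0.0199), and as the percent of cells with no mitochondrial UMI, where the change was -2.14 and -6.40 percentage points, or -7.64 and -12.3 at matched UMIs. At day 84 it ran from 0.482 to 0.652 over the pools left out, losing the threshold without day 84 pool 1. Between the times it changed sign against ECs (-0.0208).

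The relation to InjuredCD was 0.456 as a share of all cells, 0.800 with the stricter filter and 0.902 with non-epithelial cells, none of them past the threshold, and ran from 0.872 to 0.991 over the pools left out. The relation to MyoFib was 0.853, 0.801 and 0.798 under the same changes, again short of it, and ran from 0.908 to 0.993. With 5 pools, 4 of the 6 fits for InjuredCD and 3 of the 6 for MyoFib did not pass. The relation to PT cells ran from -0.643 to 0.183. Leaving out a day 84 pool leaves 1, which is then assumed to vary like the other groups. The cause of these changes was not tested. A control pool holds 16 to 70 immune cells, and day 84 has 2 pools.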
